A study of Rattus norvegicus with 12 samples.

Results

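The genes of the proteasome were followed in RNA sequencing libraries of rat pancreatic islets. They were taken as every entry of the deposited table whose symbol starts with Psma, Psmb, Psmc, Psmd, Psme, Psmf or Psmg and a number, leaving out the immunoproteasome genes Psmb8, Psmb9 and Psmb10. This gave 46 of 17407 entries, of which 44 had a mean value of at least 1 and were tested with 12339 genes in all. The islets came from Sprague-Dawley offspring aged 15 weeks, from dams kept on a low-fat diet (LF, 10% fat; lean dams) or on a high-fat and sucrose diet (HFS, 45% fat) that was used to induce gestational diabetes mellitus (GDM). The dams, 6 per diet, started their diet 6 weeks before mating to males on LF and kept it through pregnancy and suckling, so GDM, the diet that induced it and the milk of those dams cannot be told apart. Pups were weaned onto LF or HFS for 12 weeks. The 4 groups, with 3 libraries each, carry the dam first and the weaning diet second: Lean-LF and Lean-HFS, then GDM-LF and GDM-HFS. Litter and sex are not in the labels used here and nothing says which pups share a dam, so a p-value here is about the spread between 12 libraries.

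The proteasome degrades proteins that carry chains of ubiquitin. Its 20S core is a barrel of alpha rings, which form the gate, and beta rings, which hold the proteolytic sites, and its 19S cap binds ubiquitin, unfolds the substrate with a ring of ATPases and removes the ubiquitin. Beta cells make large amounts of proinsulin, and misfolded proinsulin is pulled back from the endoplasmic reticulum and degraded by the proteasome. Transcription of proteasome genes as a set is known to be raised by Nfe2l1, which binds antioxidant response elements in their promoters and is itself cut and freed by the protease Ddi2. Nfe2l1 was not analysed here.

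Since many members were higher together in offspring of GDM dams, their promoters were searched, with motifs that were chosen after the values were seen. RefSeq windows of 300 bases (250 before and 50 after the start, build GRCr8) were found for 40 of the 46 genes. Psma3l, Psma7, Psmb11, Psmd12, Psmd14 and Psmd6 were not matched. The antioxidant response element, searched as TGACNNNGC on both strands, was in 8 of the 40 windows (20.0%), against 12.1% of all 33469 promoters and 14.7% of those of tested genes. In the 20S core 4 of 13 windows had it, printed here with the match in capitals and 5′ to 3′ on the strand of the gene.

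Psma3, chr6:95219717-95219748, + strand, match on the opposite strand: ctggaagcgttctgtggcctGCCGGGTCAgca
Psmb2, chr5:144254970-144255018, + strand: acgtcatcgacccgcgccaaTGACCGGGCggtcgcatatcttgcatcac
Psmb5, chr15:32047411-32047459, - strand: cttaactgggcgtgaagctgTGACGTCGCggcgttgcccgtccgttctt
Psmb6, chr10:55737844-55737887, + strand: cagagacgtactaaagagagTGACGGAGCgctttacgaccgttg

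The antioxidant response element was in 2 of 13 windows of members that rose with GDM and in 6 of 26 of tested members that did not pass. Psma3l, Psma7 and Psmd14, which also rose, had no window. The CCAAT box was in 19 of 40 windows (47.5%; 37.5% of all promoters), with 9 of 13 in the 20S core and 5 of 14 in the 19S cap. The ETS motif CCGGAAG was in 15 of 40 (37.5%; 8.75% of all promoters, 16.4% of those of tested genes), with 3 of 13 in the core and 7 of 14 in the cap. Psmb4, the core gene with the highest level per base, carries 1 such match close to its start.

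Psmb4, chr2:185134562-185134603, - strand, match on the opposite strand: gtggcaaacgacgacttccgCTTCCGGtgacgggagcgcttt

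In all 6 motifs were searched. The palindromic site of nuclear respiratory factor was in 1 of the 40 windows (0.852% of all promoters), TGACTCAGC, which the wider TGACNNNGC includes, was in 0 (0.415%), and the interferon-stimulated element is given with the activators. These counts describe letters in the windows and were not tested.

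Libraries held between 11469290 and 27492858 reads over genes, and values are scaled to depth, not to gene length. Insulin genes, the defining markers of beta cells, took 28.9 to 32.8% of the reads outside ribosomal RNA (rRNA) as group means, with no difference detected between dams (two-sided exact permutation within weaning diets, p = 0.91). The length measure and the share of rRNA differed between dams, and for the acinar level no difference was detected. The length measure, a library's median log2 deviation of transcripts under 1000 bases minus that of transcripts over 4000 bases, averaged -0.35 for lean and 0.34 for GDM dams (exact permutation p = 0.005, the smallest that these 400 splits allow). Reads of rRNA averaged 23.1% and 5.44% of gene reads (exact permutation p = 0.035). The mean log2 level of 16 acinar markers averaged 11.06 and 12.27 (exact permutation p = 0.15), and their summed value ran from 27835 to 232107 in lean and from 39699 to 688466 in GDM libraries, highest in GDM-LF 2. Of these markers 1 of 16 passed between dams (11.6% of all tested genes), and none was at 0 in any group. Among 7 endocrine markers 1 rose, the pancreatic polypeptide gene Ppy (log2 1.61 ± 0.393, adjusted p = 0.0238). Among markers of other cells, 1 of 7 duct and 1 of 3 erythrocyte genes rose, and 2 of 8 endothelial genes fell. Of 11 macrophage and 2 tested lymphocyte genes 0 passed, with the T cell genes Cd3e and Cd3g at 0 in some groups. Of all tested genes 6.13% were higher and 5.43% lower. Median log2 differences were 1.03 for acinar, 0.49 for endocrine, 1.18 for duct and 1.70 for erythrocyte markers. They were -0.58 for endothelial, -0.40 for macrophage and -0.26 for lymphocyte markers, and these medians were not tested. Length, rRNA and the acinar level entered alternative fits given with the results, and the part of the other measures was not tested. In libraries of whole islets, fewer cells of a type and less RNA per cell cannot be told apart. The letter K, whose meaning is not stated, stands in the titles of 2 GDM-LF libraries (1 and 2) and of GDM-HFS 3 but of no lean library.

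Averaged over the weaning diets, offspring of GDM dams had more RNA of 16 of the 44 proteasome genes and less of none, where 6.13% of all tested genes were higher and 5.43% lower (limma on log2 of the scaled value plus 1, Benjamini-Hochberg adjusted p under 0.05). Most of the genes that rose were of the 20S core, where 11 of 14 rose, 6 of 7 in the alpha ring and 5 of 7 in the beta ring. In the 19S cap 1 of 17 genes rose. Of cap subunits outside these symbols, Shfm1 rose and Adrm1 did not pass, as given with the other genes of the pathway. Of the other members, 1 of 6 assembly chaperones and 2 of 5 activators and inhibitors rose, and the copy Psma3l. The median log2 difference was 0.70 over the core and 0.17 over the cap, against 0.03 over all tested genes. Without regard to the adjustment, 25 members were at p under 0.05 in either direction (30.9% of all tested genes). With reads recovered from the values, edgeR called 14 of the members higher (5.44% of its genes) and 1 lower (6.61%), and DESeq2 19 higher (9.51%) and 1 lower (9.01%), the lower one being Psmf1 in both. No member, and no gene at all, passed without the K libraries, which leaves GDM-LF with 1 library, or when the rRNA level was a covariate. Fewer members were higher without Lean-LF 1 (7, with 1.24% of all genes), without Lean-LF 2 (7, with 1.09%), with acinar level in the model (8, with 1.42%) and without GDM-HFS 3 (10, with 1.85%). Removing the length trend of each library left 6 members higher (1.83% of all genes) and made Psmf1 lower (2.59%).

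**Figure D1:**
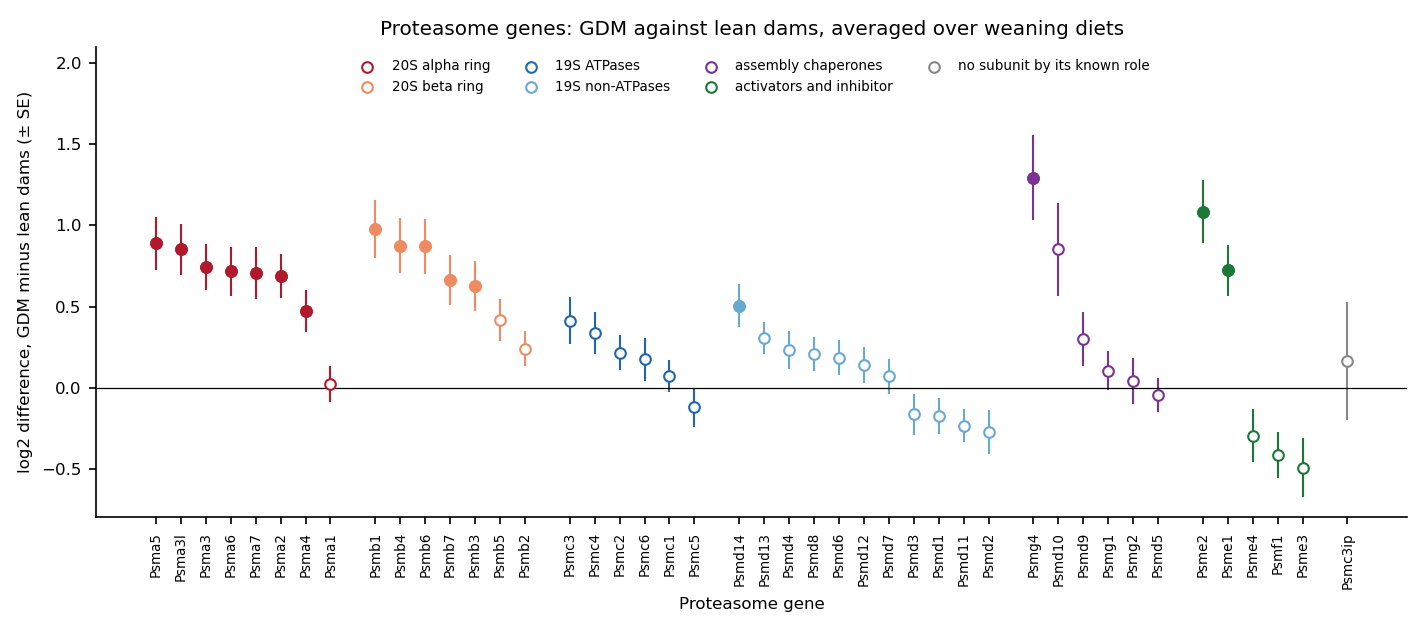
Log2 difference of GDM against lean dams averaged over weaning diets (vertical axis, bars ± SE) for the 44 tested proteasome genes, ordered by role along the horizontal axis. Filled points passed at an adjusted p under 0.05: 11 of 14 genes of the 20S core, 1 of 17 of the 19S cap, Psmg4, Psme1, Psme2 and Psma3l.

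In the beta ring Psmb1 and Psmb4 had the highest differences. Psmb1 (chromosome 1, 58399238 to 58418261, build rn5), a structural subunit, stood at 805, 741 and 1363 in Lean-LF, 875, 1291 and 1049 in Lean-HFS, 1711, 2117 and 1538 in GDM-LF and 1885, 1884 and 2862 in GDM-HFS. All 6 GDM libraries lay above all 6 lean libraries, and Lean-LF 3 was the highest of the lean ones. It rose 1.97-fold (log2 0.98 ± 0.180 SE, limma adjusted p = 0.0122). Psmb4 (chromosome 2, 215536873 to 215539647), another structural subunit, stood at 1137, 1048 and 1885, then 1288, 1574 and 1454 in the lean groups, and at 2155, 2564 and 1923, then 2306, 2757 and 3743 in the GDM groups. The dams did not overlap here either, although GDM-LF 3 was only just above Lean-LF 3 (log2 0.88 ± 0.170, adjusted p = 0.0127).

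Of the 3 catalytic subunits Psmb6 and Psmb7 passed, and Psmb5 missed the threshold in limma and passed in DESeq2; differences between the 3 were not tested. Psmb6, the caspase-like site, averaged 585 ± 240.2 and 608 ± 66.3 in the lean groups on LF and HFS and 991 ± 109 and 1157 ± 224 in the GDM groups (SD, n = 3), without overlap between dams (log2 0.87 ± 0.169, adjusted p = 0.0127). It overlaps a second entry on the opposite strand, LOC100360846, whose mean value of 736 is close to the 835 of Psmb6. Both strands were counted, so reads of the pair cannot be told apart. Psmb7, the trypsin-like site, went from 503 ± 165 and 575 ± 43.2 to 767 ± 191 and 932 ± 45.5 in the same order (SD, n = 3; log2 0.66 ± 0.153, adjusted p = 0.0205). Psmb5, the chymotrypsin-like site, stood at 446, 456 and 389 in Lean-LF, 539.5, 516 and 541 in Lean-HFS, 627, 678 and 667 in GDM-LF and 552, 501 and 870.4 in GDM-HFS. On LF its GDM libraries were all higher, but on HFS GDM-HFS 2 was below every Lean-HFS library, and the average did not pass (log2 0.42 ± 0.130, adjusted p = 0.0533; 0.04 with the length trend removed). Psmb2, the other subunit of the ring that did not pass, had a difference of 0.24 ± 0.109 (adjusted p = 0.152), and Psmb3 rose by log2 0.63 ± 0.155 (adjusted p = 0.0249).

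**Figure D2:**
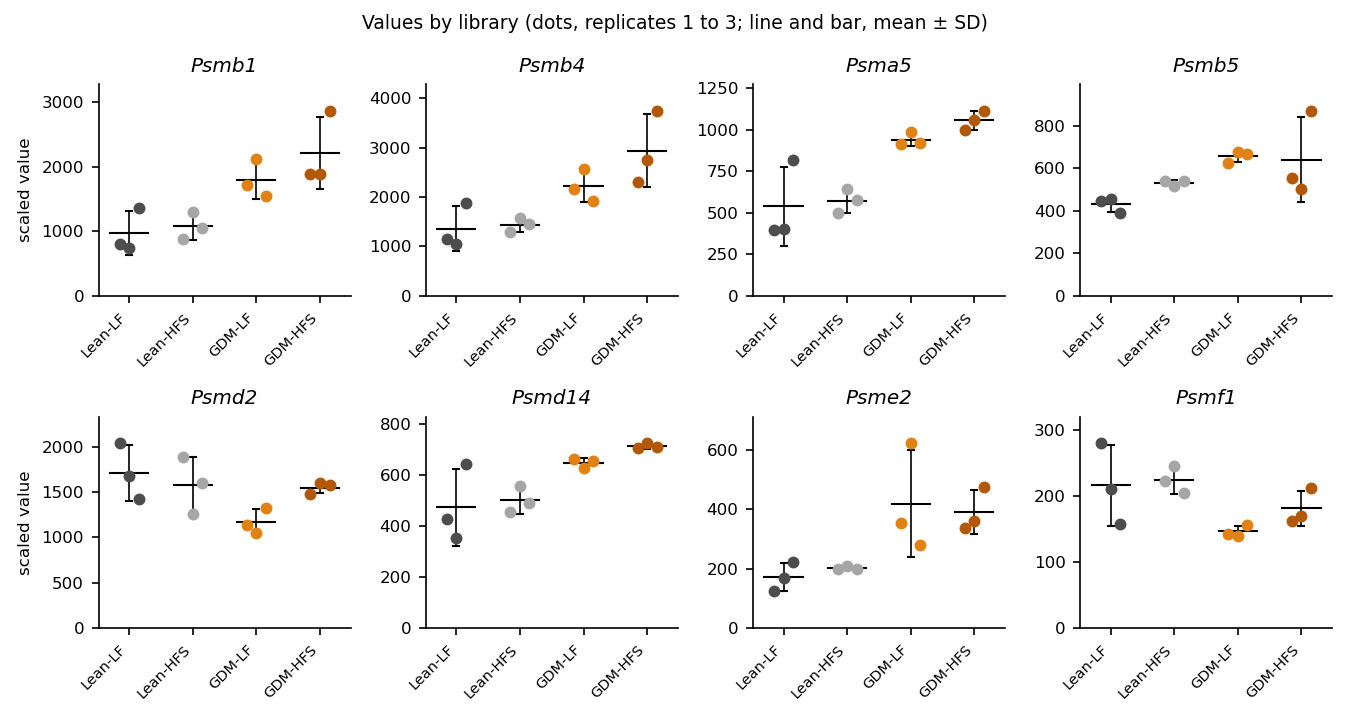
Scaled values (vertical axes, starting at 0) of 8 proteasome genes in the 3 libraries of each group (dots), with the group mean and SD (lines and bars). Psmb1, Psmb4, Psma5 and Psme2 are higher in all 6 GDM libraries than in all 6 lean ones, while Psmb5, Psmd14, Psmd2 and Psmf1 overlap between dams.

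In the alpha ring, which opens and closes the entrance to the barrel, Psma5 changed most. It stood at 396, 404 and 814 in Lean-LF, 497, 643 and 573 in Lean-HFS, 913, 983 and 921 in GDM-LF and 999, 1056 and 1112 in GDM-HFS. The GDM libraries were all higher, and Lean-LF 3 was again the highest of the lean ones (log2 0.89 ± 0.164, adjusted p = 0.0122). Psma3 (chromosome 6, 102868534 to 102898751) stood at 491, 511 and 855, then 626, 731 and 788 in the lean groups, and at 1106, 1271 and 1079, then 1046, 1036 and 1040.0 in the GDM groups. Its GDM-HFS libraries were almost equal, and the dams did not overlap (log2 0.74 ± 0.139, adjusted p = 0.0122). The entry Psma3l is placed on the same stretch of chromosome 6, while its own annotation names chromosome 10, and its reads came to 79.9 to 93.2% of those of Psma3 in each library. The pair therefore share reads to an unknown extent, and without Psma3l the count is 15 of 43 members.

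Psma6, Psma2 and Psma7, whose values were seen before they were named, rose by log2 0.72 ± 0.153, 0.69 ± 0.137 and 0.71 ± 0.159 (adjusted p = 0.0156, 0.0135 and 0.0191). Psma4 rose by 0.47 ± 0.130 (adjusted p = 0.0363), and its GDM-LF values of 648, 851 and 745 overlapped the lean ones of 404 to 694. Psma1 was the 1 gene of the ring that did not pass. It stood at 751, 577 and 803 in Lean-LF, 746, 789.7 and 773 in Lean-HFS, 587, 644 and 759 in GDM-LF and 864, 853 and 830.0 in GDM-HFS. GDM-HFS was the highest group and GDM-LF the lowest, and the average between dams was 0.02 ± 0.110 (adjusted p = 0.901).

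**Figure D3:**
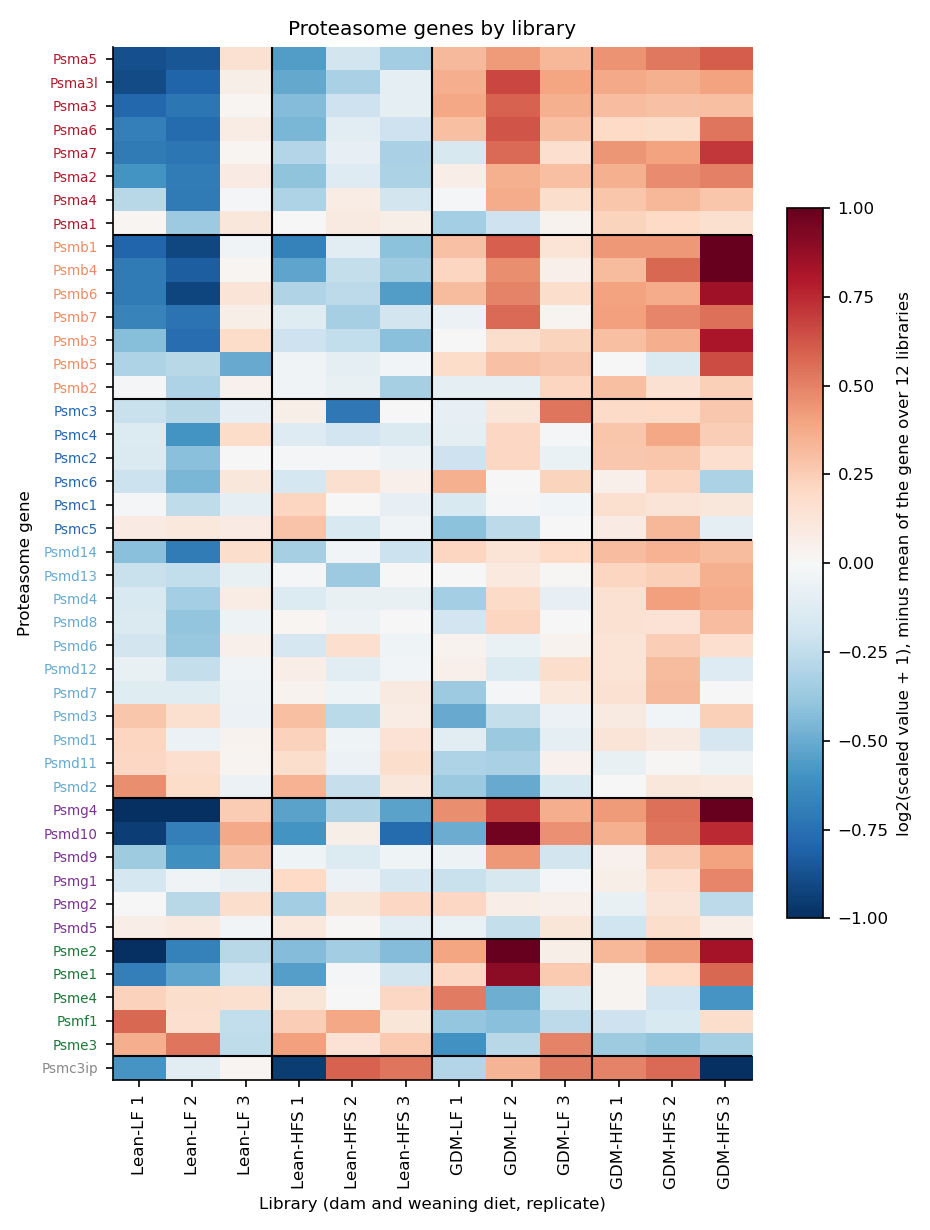
Each row is a tested proteasome gene, grouped by role in the colours of the role, and each column a library. Colour gives log2 of the scaled value plus 1 minus the gene's mean over the 12 libraries, cut at -1 and 1. Of the 14 core genes, 1 and 0 are above their mean in Lean-LF 1 and 2 but 11 in Lean-LF 3, 1 or 2 in each Lean-HFS library, and 8 (GDM-LF 1) to 14 in the GDM libraries.

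In the 19S cap few genes passed. None of the 6 ATPases passed in limma, edgeR or DESeq2, though 2 were at an unadjusted limma p under 0.05. Psmc3 had the highest difference (log2 0.41 ± 0.147, adjusted p = 0.0798) and Psmc5 the lowest (-0.12 ± 0.118, adjusted p = 0.510). Psmc4 stood at 0.34 ± 0.127 (adjusted p = 0.0940) and Psmc1 at 0.07 ± 0.0973 (adjusted p = 0.639). The ring as a whole had a median of 0.19, against 0.70 for the core.

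Among the 11 other cap subunits only Psmd14 passed in limma. Psmd14 is the metalloprotease that cuts ubiquitin chains from the substrate. It stood at 426, 351 and 643 in Lean-LF, 454, 559 and 490.4 in Lean-HFS, 661, 626 and 655 in GDM-LF and 706, 725 and 710.1 in GDM-HFS. The GDM libraries were close to one another, and only Lean-LF 3 reached into their range (log2 0.51 ± 0.134, limma adjusted p = 0.0321). Psmd14 also passed in DESeq2 but not in edgeR. With the length trend removed it did not pass (log2 0.36, limma adjusted p = 0.0824), nor in most limma fits with 1 library left out. Psmd13, a subunit of the lid, was higher in all GDM than in all lean libraries, between 475 and 606 against 369 and 473. It missed the threshold in limma (0.31 ± 0.0992, adjusted p = 0.0601) and passed in DESeq2.

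Psmd2, the large scaffold on which ubiquitin carriers dock, had the lowest difference of the cap. It stood at 2039, 1673 and 1417 in Lean-LF, 1881, 1258 and 1595 in Lean-HFS, 1139.6, 1042 and 1325 in GDM-LF and 1474, 1594 and 1578 in GDM-HFS. The GDM-LF libraries were all below the Lean-LF ones, and on HFS the dams overlapped (average -0.27 ± 0.133, adjusted p = 0.180). Psmd11, which helps hold core and cap together, was at -0.23 ± 0.103 (adjusted p = 0.142).

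Of the chaperones that build the particle, Psmg4 rose and the rest did not pass. Psmg4, part of the complex that assembles the alpha ring, stood at 67.6, 67.4 and 213 in Lean-LF, 122, 144 and 122 in Lean-HFS, 245, 288 and 229 in GDM-LF and 239.7, 261 and 467 in GDM-HFS. Lean-LF 3 was about as high as the lowest GDM library and still below it. The rise was 2.45-fold (log2 1.29 ± 0.262, adjusted p = 0.0145), the largest of any member, and 0.69 (adjusted p = 0.0510) with the length trend removed. Psmd10, a chaperone of the ATPase base, had a difference of 0.85 ± 0.284 (adjusted p = 0.0666), but the table places it on chromosome 3 while its annotation names X, so the origin of the reads of this 425-base entry is uncertain. Psmg2 (0.04 ± 0.143) and Psmd5 (-0.05 ± 0.107) stood near 0.

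Of the 5 regulators that bind the ends of the core 2 rose. Psme1 and Psme2 form the activator that interferon induces, and they lie next to each other on chromosome 15. Psme2 stood at 125, 167 and 221 in Lean-LF, 198, 210.2 and 199 in Lean-HFS, 353, 623 and 279 in GDM-LF and 337, 360.4 and 476 in GDM-HFS. All GDM libraries were higher, GDM-LF 2 most of all (log2 1.09 ± 0.192, 2.12-fold, adjusted p = 0.0119). Psme1 followed the same order of groups, from 329 ± 58.2 and 383 ± 69.1 to 634 ± 178 and 550.0 ± 109 (SD, n = 3; log2 0.72 ± 0.157, adjusted p = 0.0169). The inhibitor Psmf1 had a negative difference, from 216 ± 61.3 and 224 ± 20.4 to 146 ± 8.58 and 181 ± 26.9 (SD, n = 3; -0.42 ± 0.141, adjusted p = 0.0691). It did not pass, but it did with the length trend removed (-0.58, adjusted p = 0.0474). Psme3, the nuclear activator, was at -0.49 ± 0.183 (adjusted p = 0.0902), and its GDM-HFS libraries of 147 to 155 all lay below the Lean-HFS ones of 216 to 259.9. Psme4, the long nuclear activator, was at -0.29 ± 0.160 (adjusted p = 0.228).

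The immunoproteasome subunits, which replace the catalytic ones when interferon acts, all rose: Psmb8 by log2 0.98 ± 0.247 (adjusted p = 0.0274), Psmb9 by 1.12 ± 0.276 (adjusted p = 0.0248) and Psmb10 by 0.99 ± 0.206 (adjusted p = 0.0148). With the length trend removed Psmb10 alone passed (adjusted p = 0.0442), and Psmb8 and Psmb9 were at adjusted p = 0.0756 and 0.0729. Psmb9 stood at 72.3, 219 and 65.5 in GDM-LF, so 1 library, GDM-LF 2, was about 3 times the others. That library also had the highest interferon level (7.91, the mean log2 of 14 interferon-induced genes, against 4.09 to 5.73 in the other 11) and the highest acinar level (14.5). In this interferon level all GDM-LF libraries (5.73, 7.91 and 5.43) lay above all lean ones (4.09 to 5.18). The GDM-HFS libraries stood at 4.71 to 5.34. Over the interferon genes 3 of 14 rose (6.13% of all tested genes) and 0 fell (5.43%), and 13 were above 0. The median log2 difference was 1.29, with 1.92 on LF and 0.50 on HFS. On LF 10 were higher in all GDM than in all lean libraries (12.9% of all genes), and on HFS 2 (12.7%). The part of the interferon genes in the rise of Psme1 and Psme2 was not tested, and Psme2 stayed past the threshold without GDM-LF 2. The interferon-stimulated element, searched as GAAA, any 2 bases and GAAA on both strands, was in 5 of 40 windows (12.5%; 3.92% of all promoters), those of Psma4, Psmb3, Psmd7, Psme2 and Psmg4. It was in 4 of 13 windows of members that rose and 1 of 26 of those that did not pass, a count seen only after the values. Psme2 is shown beside Psmb10, with the match in capitals. The window of its partner Psme1 held no match. No match before the start was found for Psmb8 or Psmb9, which are outside these counts. The window of Psmb10 holds 2 matches, of which the one farther from the start is printed.

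Psme2, chr15:33052775-33052824, - strand: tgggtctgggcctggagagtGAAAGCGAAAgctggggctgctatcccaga
Psmb10, chr19:50743336-50743385, - strand: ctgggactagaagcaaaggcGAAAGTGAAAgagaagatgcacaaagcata

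Core and cap genes also differ in length, and length followed the dam in all genes. Core entries had a median length of 906.5 bases (765 to 1954) and cap entries 1511 (1274 to 3328). Among all tested genes under 1000 bases 27.7% were higher with GDM, against 11 of the 15 members of that length. From 1000 to 1500 bases the shares were 9.36% and 4 of 16, from 1500 to 2500 bases 3.33% and 1 of 8, and above that 1.16% and 0 of 5. Across the 43 members without Psma3l, Spearman's rho of length and log2 difference was -0.68, against -0.40 across all tested genes. It was -0.54 within the 17 cap genes and -0.09 within the 14 core genes. These are descriptions across genes, which share their libraries and are not replicates.

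**Figure D4:**
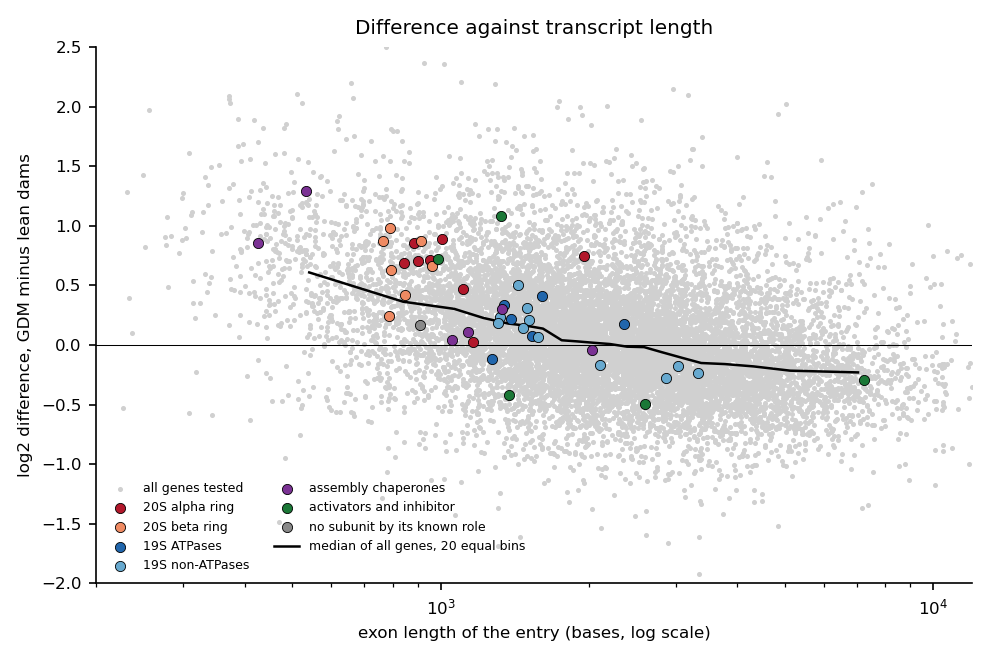
Log2 difference of GDM against lean dams (vertical axis) by exon length of the entry in bases (horizontal log axis), for all tested genes (grey) and the proteasome genes coloured by role. The black line is the median of all genes in 20 bins with equal numbers of genes, and most core genes lie above it between 765 and 1162 bases.

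The mean log2 level of the 14 core genes minus that of the 17 cap genes was -0.15, -0.12 and 0.35 in Lean-LF, -0.02, 0.32 and 0.08 in Lean-HFS, 0.58, 0.76 and 0.49 in GDM-LF and 0.51, 0.45 and 0.82 in GDM-HFS. All GDM libraries were above all lean ones. Across the 12 libraries this difference followed the length measure (Pearson's r 0.93, Spearman's rho 0.93, as a description over libraries that also differ by dam). With the length trend removed from each library it averaged 0.20 ± 0.15, 0.20 ± 0.14, 0.53 ± 0.07 and 0.43 ± 0.12 in the same order of groups (SD, n = 3). The smallest GDM value, 0.33 in GDM-HFS 2, was then below Lean-LF 3 at 0.37 and Lean-HFS 2 at 0.36, so the dams overlapped. The median difference of the core went from 0.70 to 0.35 and that of the cap from 0.17 to 0.01. The 6 members still higher were Psma3, Psma3l, Psma5, Psmb1, Psmb4 and Psme2, or 5 without Psma3l, which shares reads with Psma3. Psma3, listed at 1954 bases, went from 0.74 to 0.72, and Psma3l, listed at 884 bases, from 0.85 to 0.50. Calls with the length trend removed changed when 1 library was also left out, as did those of all genes. In 8 of the 12 such fits no member passed, and in 6 of the 8 no gene at all, with at most 15 genes in the others. Without Lean-LF 3 14 members were higher (4.59% of all genes) and Psmf1 lower (6.65%).

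**Figure D5:**
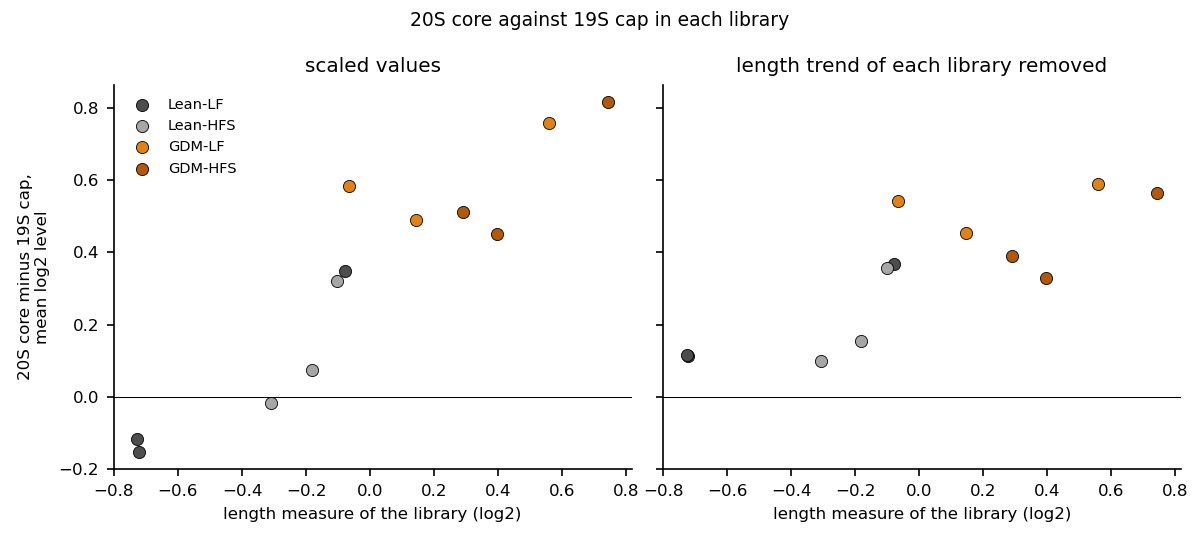
Mean log2 level of the 20S core minus that of the 19S cap (vertical axis) against the length measure (horizontal axis, log2) in each of the 12 libraries, coloured by group, with scaled values on the left and with the length trend removed on the right. On the left all GDM libraries are above the lean ones, and on the right the lowest GDM library, at 0.33, falls below Lean-LF 3 and Lean-HFS 2.

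On the LF weaning diet alone 3 members passed, Psma3 (log2 0.94 ± 0.197), Psma3l (1.02 ± 0.221) and Psme2 (1.24 ± 0.271), each higher with an adjusted p of 0.0477, where 0.851% of all genes were higher, 0.729% lower and 1.58% either. At an unadjusted p under 0.05 there were 20 (26.6% of all genes). Lean-LF 3 was the highest of the 6 lean libraries for 12 of the 14 core genes, while Lean-LF 2 was the lowest of all 12 for 10 of them. Lean-LF 3 also had the lowest share of rRNA of all libraries, 1.841%. The other lean libraries had 11.3 to 39.0% and the GDM libraries 1.844 to 8.55%. Its length measure of -0.079 was the highest of the lean libraries. The part of these measures in its core values was not tested. Without Lean-LF 3 18 members passed (14.0% of all genes), without GDM-LF 3 9 (13.6%), and without any other 1 library 0, where no gene at all passed. With all libraries edgeR called 0 and DESeq2 13, of which Psmd2 was lower (7.46% of all genes higher and 6.23% lower in DESeq2). By overlap of libraries, 13 members were higher in all GDM-LF than in all Lean-LF libraries (12.9% of all genes) and 5 were lower (12.4%), namely Psmc5, Psmd1, Psmd2, Psmd3 and Psmf1. The higher ones held 7 of the 14 core and 2 of the 17 cap genes, and the lower ones 0 core and 4 cap genes. The count of lower ones was near the share of all genes. Of these cap genes Psmd1, Psmd2 and Psmd3 are long entries of 3039, 2874 and 2107 bases, and Psmc5 has 1274. Without Lean-LF 3 the higher ones were 25 (23.8% of all genes), with 12 core genes, and the lower ones 6 (22.7%).

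On HFS 0 members passed in limma (0.0081% of all genes), although 22 were at an unadjusted p under 0.05 (14.2% of all genes), edgeR called 0 and DESeq2 9, all higher (1.69% of all genes), and limma 8 without Lean-LF 3 (1.23% of all genes called). Psmb4 had the lowest p, with a log2 difference of 1.00 ± 0.241 (adjusted p = 0.188). Here 26 members were higher in all GDM-HFS than in all Lean-HFS libraries (12.7% of all genes), with 13 of 14 core genes, and Psme3 alone was lower (12.1%). GDM-HFS 3 was the highest of all 12 libraries for 8 of the 14 core genes. The median difference of the core was 0.65 on LF and 0.71 on HFS, and that of the cap 0.14 and 0.13. Over both diets 11 members were higher in all 6 GDM libraries (2.8% of all genes) and 0 lower (2.32%): Psma3, Psma3l, Psma5, Psma6, Psmb1, Psmb4, Psmb6, Psmd13, Psme1, Psme2 and Psmg4.

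No member passed for the weaning diet. In groups from lean dams, in groups from GDM dams, in their average and in the interaction of dam and diet, 0 members passed in limma, edgeR or DESeq2 (0.0% of all genes in limma). At an unadjusted p under 0.05 there were 0 members in lean (2.18% of all genes), 3 in GDM (9.63%), 1 in the average (4.95%) and 0 in the interaction (5.92%). The lowest p belonged to Psmb5 in lean (log2 0.31 ± 0.184, adjusted p = 1), Psmd4, a ubiquitin receptor, in GDM (0.39 ± 0.165, adjusted p = 0.504) and Psma1 in the average (0.25 ± 0.110, adjusted p = 0.883). For the interaction it was Psmd2, whose dam difference was -0.54 ± 0.188 on LF and -0.01 ± 0.188 on HFS (interaction 0.53 ± 0.267, adjusted p = 0.784). A difference in the dam effect between diets was thus not detected for any member with 3 libraries a group.

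Per kilobase of exon, core genes had the highest levels, with a median scaled value of 817 and a range from Psma3 at 451 to Psmb4 at 2173. The second highest was Psmb1 at 1909, and the rest of the core stood at 1153 or less. Cap genes had a median of 393 (Psmd11 at 217 to Psmc1 at 533), and the assembly chaperones 109 (85.4 to 385). Psmc3ip, which carries the prefix but is known as a factor of meiotic recombination and no subunit, was at 13.5 and overlaps Mlx on the opposite strand. With 8 to 80 reads a library, no difference was detected for Psmc3ip (0.17 ± 0.365, adjusted p = 0.789). Psma8, the alpha subunit of the testis, had 0 to 4 reads a library and Psmb11, the beta subunit of the thymus, 0 to 10, so neither was tested.

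Other genes of the pathway did not rise as a block. Of 7 tested genes that complete the particle or bind it, 1 rose (6.13% of all tested genes). It was Shfm1, the lid subunit also known as Sem1, which rose by log2 1.42 ± 0.229 (adjusted p = 0.00966). Its values were 179.7, 234 and 515 in Lean-LF, 333, 429 and 361 in Lean-HFS, 809.9, 1060.4 and 581 in GDM-LF and 851, 840.3 and 1165 in GDM-HFS. All GDM libraries were higher, and it is a short entry of 748 bases, below the 1274 to 3328 of the cap members. Pomp, the maturation factor of the core, was at 1.10 ± 0.420 (adjusted p = 0.0982), with values of 1.79 to 13.7 in lean and 5.65 to 21.6 in GDM libraries. Adrm1, a ubiquitin receptor of the cap, was at -0.23 ± 0.117 (adjusted p = 0.193).

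Of 5 tested regulators of proteasome genes 0 rose (6.13% of all tested genes) and 1 fell (5.43%). This was Ddi2, at 446, 464 and 349 in Lean-LF, 378, 335 and 303 in Lean-HFS, 222, 173 and 267 in GDM-LF and 281, 306 and 224 in GDM-HFS (log2 -0.63 ± 0.136, adjusted p = 0.0158). GDM-LF was below Lean-LF throughout, and on HFS GDM-HFS 2 overlapped the lean libraries. Of 13 genes of ubiquitin and its handling, 1 rose and 1 fell, near the same shares of all tested genes. Only 2 of the 13 were above 0, with a median log2 difference of -0.28. Their median length was 2748 bases, against 906.5 for the core. The one that rose, Rps27a (1.00 ± 0.208, adjusted p = 0.0148), encodes ubiquitin fused to a ribosomal protein, and the one that fell was the shuttle Ubqln1 (-0.37 ± 0.107, adjusted p = 0.0424). The polyubiquitin gene Ubb did not pass (-0.32 ± 0.169, adjusted p = 0.210).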

How the data were processed

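Islet RNA depleted of rRNA was made into directional libraries, 3 in each of 4 groups taken from the titles, per the labels' protocols. The submitters' processing notes list STAR 2.5.1b as aligner, HOMER 4.9 for counting and an unversioned DESeq2. Reads on exons were counted per gene, on build rn5 and both strands, per the file headers. The deposited values are a depth-scaled signal: although the header says FPKM, no division by length shows in them. Each is a whole multiple of 1 step per library, and dividing by it gave whole reads for 100% of values up to 1000 reads (tolerance 0.1). A value of 1 stands for 1.96 to 5.02 reads. Members, gene lists and tests were chosen with earlier results of these data known.

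Values were rescaled by median ratios over the 11337 entries above 0 in all libraries (factors 0.827 to 1.27), and genes with a mean of at least 1 were tested (12339). The test was limma 3.58.1 (R 4.3.3) on log2 of the scaled value plus 1, with group means over all 12 libraries, a trend of variance on mean (median 13.37 degrees of freedom) and Benjamini-Hochberg adjustment within each of 7 contrasts. Folds are on that scale, which understates low genes. As alternatives, edgeR 4.0.16 and DESeq2 1.42.0 took the recovered reads, less the 3 rRNA entries. Limma, edgeR, DESeq2 and limma with the length trend removed were tested on simulated data, and the other fits were not. The simulation used the same dispersion for every gene and no length trend. The genes named were, in each role, the 2 members with the highest and the 2 with the lowest difference between dams, those of lowest p or past the threshold in the other contrasts, the catalytic and immunoproteasome subunits, Pomp, Adrm1, and members not tested or no subunit. Psma2, Psma6, Psma7, Psmb3, Psme4, Shfm1, Ddi2, Rps27a, Ubqln1 and Ubb were named after their values were seen, as were members listed by library overlap. Libraries of a group differed by more than sampling noise. Psmg3 and Paaf1 were not analysed here, and 1 gene of the ubiquitin list is not reported here. Promoter sequences are from RefSeq (GRCr8).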

Additional observations from a re-analysis of the deposited data

How the results depend on the processing

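Every one of the 16 members that rose with GDM kept a difference above 0 under each alternative run, but the count that passed did not hold. Against 16 called members averaged over diets, 0 passed without the K libraries (0 of all genes), 7 with the length trend removed, 8 with the acinar level as a covariate and 0 with the rRNA level as a covariate. Leaving out 1 library gave 7 (without Lean-LF 1 or Lean-LF 2) to 22 (without Lean-LF 3), 10 without GDM-HFS 3, and with the length trend also removed, an alternative chosen after seeing the data, 0 to 15. Against 3 on LF, 1 passed with values as deposited, 13 in DESeq2, 11 with the rRNA covariate (5.95% of all genes), and 0 of all genes without the filter, without the variance trend, without the K libraries, in edgeR, with the length trend removed or with the acinar covariate. Leaving out 1 library gave 0 to 18. Against 0 on HFS, 9 passed in DESeq2, and leaving out 1 library gave 0 to 8, the latter without Lean-LF 3. The cause was not tested in any of these. Replicate numbers did not pair the libraries: 5 of 18 same-numbered pairs correlated above 0.1 (-0.50 to 0.20) and 5 of 12 libraries correlated best with their own number. The replicate block gave 15 called members averaged over diets and 0 on LF.

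Sign changes of the difference between dams were followed only for the genes named by the rule and for Psma2, Psma6, Psma7, Psmb3, Shfm1 and Ddi2. Outside these, Psmd7 (0.070) and Psmg1 (0.11) also fell below 0 with the length trend removed (-0.034 and -0.14). Of the 8 differences that changed sign among the genes followed, 7 passed in no fit. The exception was Psmb5 (0.42), which passed in DESeq2 and without GDM-HFS 2 and fell below 0 when the length trend and Lean-LF 3 or GDM-HFS 3 were left out. Psma1 was -0.020 in edgeR, -0.21 with the length trend removed and -0.16 with the rRNA covariate, -0.047 to 0.072 with 1 library left out, and as low as -0.27 with 1 library left out and the length trend removed. Psmg2 was -0.00906, -0.24 and -0.19 in the same 3 fits, -0.045 to 0.094 with 1 library left out, and as low as -0.31 with the length trend also removed. With the length trend removed Psmb2 was -0.18, Psmc1 -0.043 and Psmc3ip -0.18. Psmc3ip was -0.0722 with the rRNA covariate. Without the K libraries Psmc5 was 0.039 and Psmd5 0.032, and Psmd5 was 0.024 with the acinar covariate. With 1 library left out, with or without the length trend, Psmb2 ran from -0.24 to 0.27, Psmb5 from -0.0543 to 0.50, Psmc1 from -0.0782 to 0.12, Psmc3ip from -0.42 to 0.44 and Psmd5 from -0.092 to 0.0077. The part of counting in this spread was not tested. Of the tested members Psmc3ip (8 to 80 reads a library) and Psmd10 (53 to 330) had the fewest reads.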
